A study of Mus musculus with 9 samples.

Results

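Levels of 8 chemokine ligand genes, Ccl2, Ccl5, Ccl6, Ccl7, Ccl8, Ccl9, Cxcl14 and Cx3cl1, and of 1 receptor gene, Ccr2, were compared in injured tibialis anterior, a muscle at the front of the lower hind limb. The 9 genes were taken by symbol from a table of 54532 genes, and all 9 passed the filter on low values, which left 14233 genes for testing. RNA carrying a poly(A) tail was sequenced from 3 libraries each of young wild-type mice aged 4 to 6 months, old wild-type mice aged 24 months and old P311-/- mice. The P311-/- mice are described as old with no age in months, and strain, sex, kind of injury, time after injury and how the P311 allele was made are not stated in the sources at hand. Every group had been injured, so the values compare injured muscles with each other and not with resting muscle. The replicates are not stated to be separate animals, and p-values then measure the spread between these libraries, which may be technical.

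Recovered read totals lay between 14222204 and 31910890 per library. Nrep, the gene that encodes P311, stood at 86.3, 72.6 and 63.9 FPKM (reads per gene length and sequencing depth, where the depth is a size that the authors adjusted) in young wild type. It stood at 72.4, 71.4 and 83.1 FPKM in old wild type and at 14.8, 6.37 and 9.72 FPKM in P311-/-, so each P311-/- library was below every wild-type library. Replicate 1 of P311-/- stood apart from replicates 2 and 3. On the first principal component of all tested genes it scored -11.2, against 52.3 and 37.9 for replicates 2 and 3. Old wild type scored -1.09 to 12.3 and young wild type -36.6 to -24.8. On that component P311-/- replicate 1 thus lay between the wild-type groups, and P311-/- replicates 2 and 3 had the highest scores of all libraries. Results that involve the P311-/- group are therefore given with and without that library. Replicate 1 was singled out from these same values, and leaving it out keeps only replicates 2 and 3. These scored farther from old wild type, so differences can grow and spread can shrink by that choice alone. The p-values of fits without replicate 1 are therefore descriptive. The 8 muscle fibre markers were all above 0 in all libraries and summed to between 30005 and 44928 FPKM.

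Chemokines are small secreted proteins that draw leukocytes along a gradient by activating G protein-coupled receptors. In injured muscle, the receptor CCR2 is known for bringing inflammatory monocytes from the blood into the tissue, where they become macrophages that clear debris and later support repair. CCL2 and CCL7 are ligands of CCR2. CCL8 belongs to the same monocyte chemoattractant family, CCL5 acts on receptors that include CCR1 and CCR3, and CCL6 and CCL9 are rodent ligands of CCR1. CX3CL1, or fractalkine, is made as a membrane-anchored protein and binds CX3CR1, while CXCL14 is a chemokine of epithelial and connective tissues with no settled receptor.

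Of the 9 genes, 6 lie on chromosome 11, in groups of neighbours (GRCm38 coordinates). Ccl2 (chr11:82035571-82037453), Ccl7 (chr11:82045712-82047525) and Ccl8 (chr11:82115185-82116799) are on the plus strand within 81.2 kb. Across a gap of 1.41 Mb, Ccl5 (chr11:83525778-83530518), Ccl9 (chr11:83572919-83578636) and Ccl6 (chr11:83587882-83593087) are on the minus strand within 67.3 kb. Cxcl14 lies at chr13:56288643-56296551 on the minus strand, Cx3cl1 at chr8:94772009-94782427 on the plus strand and Ccr2 at chr9:124101950-124113557 on the plus strand. Ccl2 overlaps Gm17268 on the opposite strand, which is listed at 0 in all 9 libraries. Ccl6 overlaps E230016K23Rik on the opposite strand, which reached at most 0.270 FPKM. It is not known whether the counting used strand.

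RefSeq promoter windows on GRCm38.p6, each 250 bases before to 50 bases after an annotated start, were matched by symbol for 6 of the 9 genes: Ccl8, Ccl6, Ccl9, Cxcl14, Cx3cl1 and Ccr2. Those of Ccl8, Ccl6 and Ccl9 are shown because Ccl8 had the highest level and the widest ratio between P311-/- replicate 1 and replicates 2 and 3, and because Ccl6 and Ccl9 are adjacent on chromosome 11 and had similar patterns over the libraries. The 250 bases before the start are printed 5′ to 3′ on the gene's strand, at chr11:82114935-82115184 (plus strand) for Ccl8, chr11:83593088-83593337 (minus strand) for Ccl6 and chr11:83578637-83578886 (minus strand) for Ccl9. Capitals mark matches to the motifs searched.
Ccl8: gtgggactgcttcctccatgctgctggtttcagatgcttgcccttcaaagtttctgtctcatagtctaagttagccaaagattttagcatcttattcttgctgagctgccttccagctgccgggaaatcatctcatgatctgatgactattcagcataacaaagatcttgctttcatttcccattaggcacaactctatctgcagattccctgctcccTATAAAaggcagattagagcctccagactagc
Ccl6: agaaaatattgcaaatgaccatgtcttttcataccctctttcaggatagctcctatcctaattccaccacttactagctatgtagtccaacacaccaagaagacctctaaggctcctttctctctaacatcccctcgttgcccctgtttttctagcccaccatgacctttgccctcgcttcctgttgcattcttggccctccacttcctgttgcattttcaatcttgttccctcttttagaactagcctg
Ccl9: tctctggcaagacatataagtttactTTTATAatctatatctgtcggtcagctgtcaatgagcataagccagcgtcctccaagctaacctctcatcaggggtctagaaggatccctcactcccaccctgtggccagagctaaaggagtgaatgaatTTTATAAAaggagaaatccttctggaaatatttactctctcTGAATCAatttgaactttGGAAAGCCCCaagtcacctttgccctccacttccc
Motifs were searched on both strands over the 300 bases of a window: a TATA box written TATAAA, an AP-1 site written TGANTCA, a STAT site written TTCNNNGAA and the NF-kB consensus. The Ccl8 window held a TATA box beginning at base -32 from the start and no other match. In Ccl9 there were TATA box matches beginning at bases -224, -94 and -92, of which the last 2 overlap, an AP-1 match at -53 and an NF-kB match at -35. The Ccl6 window held none of the motifs. Of the windows not shown, that of Cxcl14 held a STAT match beginning at base -191, that of Cx3cl1 a TATA box match at -6 and that of Ccr2 no match. The annotated starts used for Cx3cl1 and Ccr2 lie 171 and 233 bases inside the gene from the gene starts given above. Among 32851 RefSeq mouse promoter windows of this length, 13.6% held the TATA box, 7.81% the AP-1 site, 8.30% the STAT site and 4.51% the NF-kB consensus. These matches describe the letters and do not show binding.

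Per unit of length, the transcripts spanned a wide range of levels, and their order was nearly the same in all 3 groups. In old wild type the mean FPKM was 260 ± 63.8 (SD, n = 3) for Ccl8, 65.7 ± 23.4 for Cxcl14, 49.9 ± 29.4 for Ccl6 and 16.9 ± 6.61 for Ccl9. Lower in the order came Ccl7 at 15.3 ± 8.75, Ccl5 at 13.2 ± 6.68, Ccr2 at 10.3 ± 3.20, Ccl2 at 6.26 ± 1.94 and Cx3cl1 at 1.43 ± 0.131 FPKM. Ccl8 was clear of Cxcl14 in both wild-type groups, Ccl6 was clear of Ccl9 in all 3 groups, and Cxcl14 and Ccl6 overlapped in both wild-type groups. Neighbours from Ccl9 down to Ccl2 overlapped in old wild type, so their order there is not resolved beyond the spread between libraries. Young wild type had the same order of means, and in P311-/- Ccl5 and Ccl7 changed places.

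**Figure D1:**
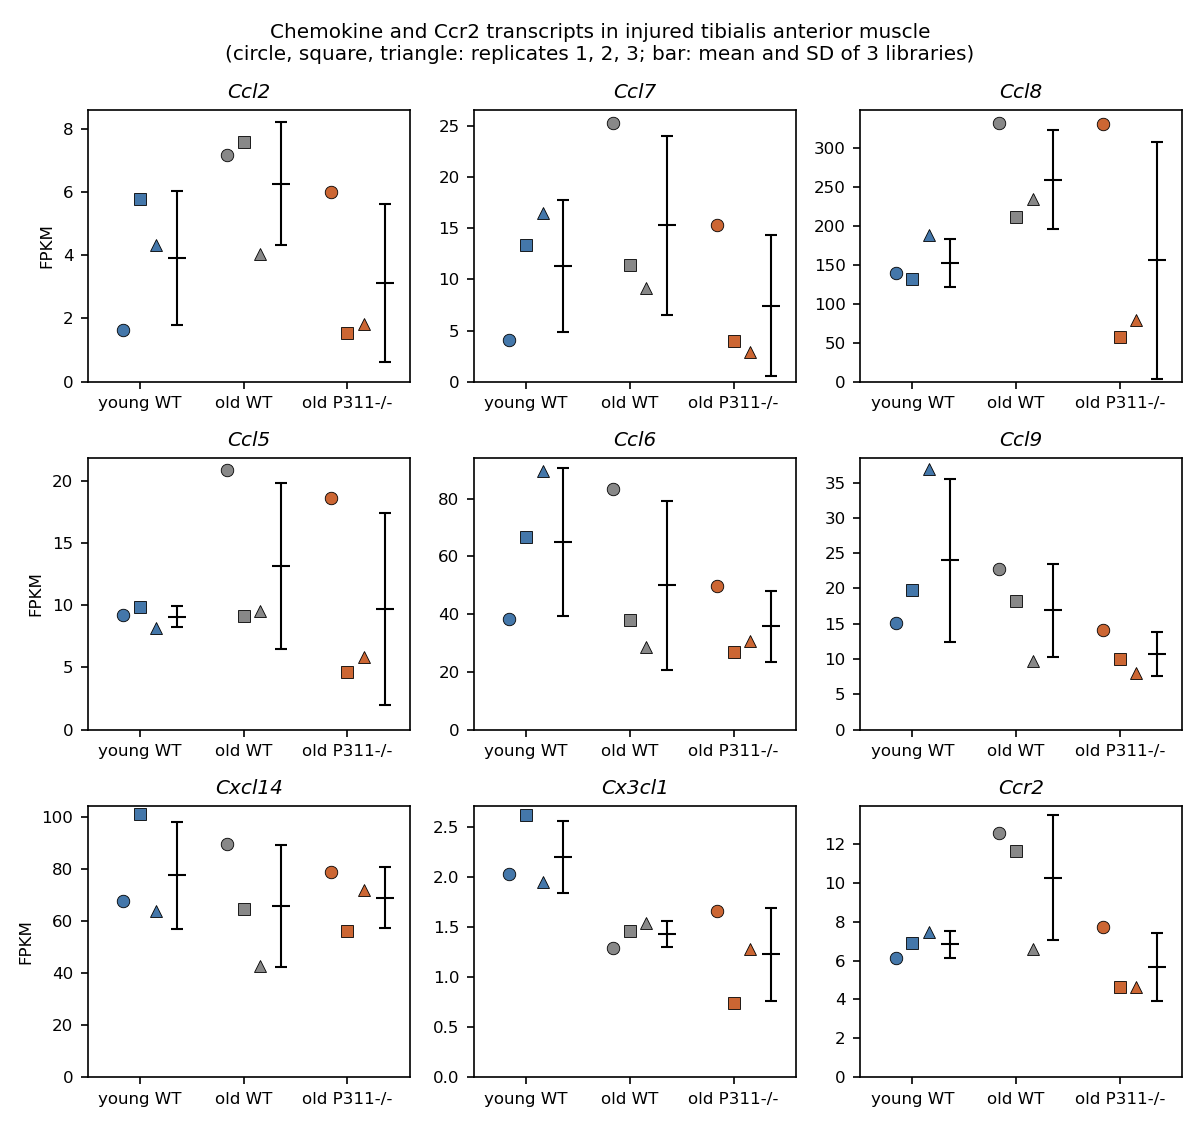
Level in FPKM (vertical axis, linear, a separate scale for each gene) of the 9 genes, by group from left to right (young, then old, then old P311-/-); points are libraries, with circles, squares and triangles for replicates 1, 2 and 3, and bars give the mean and SD of 3 libraries. The P311-/- circle is above the square and the triangle in all 9 panels, for Ccl8 at 331 against 57.6 and 78.6 FPKM.

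Ccl8, the most abundant of the set, was at 139, 131 and 188 FPKM in young wild type, at 332, 212 and 235 in old wild type and at 331, 57.6 and 78.6 in P311-/-. The wild-type groups did not overlap, with every old library above every young one, while P311-/- replicate 1 matched the highest old library and replicates 2 and 3 were below all 6 wild-type libraries. Old over young wild type gave a log2 fold change of 0.76 (95% interval -0.45 to 1.96), which did not pass (limma, adjusted p = 0.401). P311-/- against old wild type gave -1.15 (-2.36 to 0.06), which did not pass either (limma, adjusted p = 0.326). That value shrank to -0.66 when P311-/- replicate 2 was left out. P311-/- against young wild type gave -0.40 (-1.61 to 0.81; limma, adjusted p = 0.700), and 0.098 when replicate 2 was left out. Without P311-/- replicate 1, the Ccl8 level fell by 1.92 on the log2 scale against old wild type (limma, adjusted p = 0.0042) and by 1.16 against young wild type (limma, adjusted p = 0.0121). In that fit the difference between old and young wild type, unchanged in size, also passed (limma, adjusted p = 0.0485), because the spread is estimated over all groups together.

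Ccl2, the principal CCR2 ligand, was at 1.62, 5.78 and 4.31 FPKM in young wild type, at 7.17, 7.58 and 4.04 in old wild type and at 6.01, 1.52 and 1.83 in P311-/-. One young library was as low as P311-/- replicates 2 and 3, and the groups overlapped in every comparison. The log2 fold change was 0.79 (-0.47 to 2.05) for old over young wild type (limma, adjusted p = 0.399) and -1.20 (-2.46 to 0.06) for P311-/- against old wild type (limma, adjusted p = 0.327). The Ccl2 values rest on 28 to 195 reads per library, with the lowest count of any member in a library. The difference from old wild type shrank to -0.84 without P311-/- replicate 2. With P311-/- replicate 1 left out, Ccl2 fell by 1.79 against old wild type, just past the threshold (limma, adjusted p = 0.0498). Against young wild type the value was -0.41 (-1.67 to 0.85; limma, adjusted p = 0.704), and -1.003 with that library left out (limma, adjusted p = 0.191).

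Ccl7, another CCR2 ligand and the neighbour of Ccl2, was at 4.12, 13.4 and 16.5 FPKM in young wild type, at 25.3, 11.5 and 9.15 in old wild type and at 15.4, 3.98 and 2.93 in P311-/-. Here too the first young library was low, the first old library was high, and P311-/- replicates 2 and 3 were below all wild-type libraries. Its log2 fold change was 0.51 (-1.03 to 2.04) for old over young wild type (limma, adjusted p = 0.673), and leaving out young replicate 1 turned the sign to -0.10. For P311-/- against old wild type it was -1.28 (-2.81 to 0.26; limma, adjusted p = 0.373). Without P311-/- replicate 1 the value was -1.99 (-3.51 to -0.47) and still did not pass (limma, adjusted p = 0.0852). It shrank to -0.81 when P311-/- replicate 3 was left out instead. Against young wild type Ccl7 gave -0.77 (-2.30 to 0.77; limma, adjusted p = 0.536), and -1.48 without P311-/- replicate 1 (limma, adjusted p = 0.154).

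Between Ccl7 and Ccl8 on the chromosome lie Ccl11, an eosinophil chemoattractant, and Ccl12, a mouse CCR2 ligand; the choice to give them here was made after their values were seen. Ccl12 was at 3.32, 4.35 and 3.68 FPKM in young wild type, at 23.5, 10.7 and 5.09 in old wild type and at 21.6, 3.75 and 6.04 in P311-/-. Ccl11 was at 23.3, 16.1 and 19.9 FPKM in young wild type, at 47.8, 32.3 and 22.5 in old wild type and at 29.3, 25.4 and 24.0 in P311-/-. For Ccl12 every old wild-type library was above every young one, with a log2 fold change of 1.51 that did not pass (limma, adjusted p = 0.174), and P311-/- replicate 1 again stood above replicates 2 and 3.

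Ccl5, made mainly by T cells, NK cells and macrophages, was at 9.22, 9.85 and 8.17 FPKM in young wild type, at 20.9, 9.12 and 9.53 in old wild type and at 18.6, 4.66 and 5.86 in P311-/-. The young libraries were close together, and 1 old wild-type and 1 P311-/- library, both replicate 1, stood at about the same high level. The log2 fold change was 0.43 (SE 0.48) for old over young wild type (limma, adjusted p = 0.606) and dropped to 0.042 without old wild-type replicate 1. Against old wild type, P311-/- gave -0.60 (SE 0.48, 95% interval -1.68 to 0.47; limma, adjusted p = 0.542). The value shrank to -0.22 without old wild-type replicate 1, and Ccl5 fell by 1.21 once P311-/- replicate 1 was left out (limma, adjusted p = 0.0441). Against young wild type the value of -0.18 (-1.25 to 0.90; limma, adjusted p = 0.859) turned positive when P311-/- replicate 2 or 3 was left out, at 0.21 and 0.044, and was -0.78 without replicate 1 (limma, adjusted p = 0.126).

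Ccl6 and Ccl9 are constitutively made by macrophages and other myeloid cells, and their highest library was young wild-type replicate 3, unlike the CCR2 ligands. Ccl6 was at 38.4, 66.7 and 89.6 FPKM in young wild type, at 83.4, 38.0 and 28.4 in old wild type and at 49.7, 26.9 and 30.5 in P311-/-. Ccl9 was at 15.1, 19.8 and 37.0 FPKM in young wild type, at 22.8, 18.2 and 9.73 in old wild type and at 14.2, 9.99 and 7.999 in P311-/-. For Ccl9 all P311-/- libraries were below all young libraries, while both genes overlapped between the wild-type groups and between P311-/- and old wild type. Old over young wild type gave log2 fold changes of -0.45 (-1.40 to 0.51) for Ccl6 (limma, adjusted p = 0.534) and -0.48 (-1.35 to 0.38) for Ccl9 (limma, adjusted p = 0.454). P311-/- against old wild type gave -0.38 (-1.34 to 0.58) for Ccl6 (limma, adjusted p = 0.676), which turned to 0.068 without old wild-type replicate 1 and was -0.64 without P311-/- replicate 1 (limma, adjusted p = 0.408), and -0.61 (-1.47 to 0.26) for Ccl9 (limma, adjusted p = 0.445), or -0.82 without that library (limma, adjusted p = 0.241). P311-/- against young wild type gave -0.83 for Ccl6 (limma, adjusted p = 0.290), or -1.09 without P311-/- replicate 1 (limma, adjusted p = 0.156), and -1.09 (-1.95 to -0.23) for Ccl9 (limma, adjusted p = 0.162). The Ccl9 difference passed with library quality weights estimated from these same values, at -1.37 (limma, adjusted p = 0.0292). It did not pass when P311-/- replicate 1 was left out, at -1.31 (limma, adjusted p = 0.0721).

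Cxcl14 had the fold change nearest to 0 of all members in each comparison. Its level was 67.8, 101 and 63.8 FPKM in young wild type, 89.6, 64.7 and 42.9 in old wild type and 79.0, 56.3 and 71.8 in P311-/-. All 3 groups overlapped, and the lowest library was an old wild-type one. The log2 fold changes were -0.27 (-0.89 to 0.35) for old over young wild type (limma, adjusted p = 0.563), 0.12 (-0.50 to 0.74) for P311-/- against old wild type (limma, adjusted p = 0.847) and -0.15 (-0.77 to 0.47) for P311-/- against young wild type (limma, adjusted p = 0.786). Each of these values changed sign when a single library was left out: the first 2 without old wild-type replicate 3, at 0.0041 and -0.15, and the third without young replicate 2, at 0.057. Without P311-/- replicate 1 the last 2 values were 0.017 and -0.25.

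Cx3cl1, the membrane-anchored ligand, was the least abundant member, at 2.03, 2.62 and 1.96 FPKM in young wild type, 1.29, 1.46 and 1.55 in old wild type and 1.66, 0.740 and 1.29 in P311-/-. Every young library was above every old library of either genotype, and the old groups overlapped. The log2 fold change was -0.58 (-1.17 to 0.01) for old over young wild type (limma, adjusted p = 0.198) and -0.85 (-1.44 to -0.26) for P311-/- against young wild type (limma, adjusted p = 0.135). Cx3cl1 fell by 1.08 in P311-/- against young wild type when P311-/- replicate 1 was left out (limma, adjusted p = 0.0185). Against old wild type the value was -0.27 (-0.86 to 0.32; limma, adjusted p = 0.630) and turned to 0.032 without P311-/- replicate 2. It was -0.50 without replicate 1 (limma, adjusted p = 0.204).

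Ccr2, the receptor that monocytes carry, was at 6.11, 6.91 and 7.46 FPKM in young wild type, at 12.5, 11.6 and 6.60 in old wild type and at 7.71, 4.66 and 4.65 in P311-/-. Replicates 1 and 2 of old wild type were above all other libraries, the third was within the young range, and P311-/- replicates 2 and 3 were the lowest of all 9. Old over young wild type gave a log2 fold change of 0.53 (-0.06 to 1.12; limma, adjusted p = 0.234). P311-/- against old wild type gave -0.83 (-1.42 to -0.24), the smallest p of the members in that comparison, at 0.0112 before adjustment in limma's moderated test, and it did not pass over all genes (limma, adjusted p = 0.257). The difference shrank to -0.66 without old wild-type replicate 1. Leaving P311-/- replicate 1 out, Ccr2 fell by 1.07 (limma, adjusted p = 0.0268). Against young wild type the value was -0.30 (-0.89 to 0.29; limma, adjusted p = 0.529), and -0.54 without that library (limma, adjusted p = 0.158). Of 10 monocyte markers listed, 1 was above 0 in old against young wild type, Ccr2 itself. The remaining 9 were below 0, and the list median was -0.50. Of 16 macrophage markers 15 were below 0 there, with a median of -0.40, beside 49.6% of all genes below 0.

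Other receptors of these ligands were low. Ccr1, the receptor for CCL6 and CCL9, was at 1.12, 2.05 and 1.27 FPKM in young wild type, 3.47, 2.30 and 1.91 in old wild type and 3.11, 1.36 and 1.80 in P311-/-. Cx3cr1, the receptor for CX3CL1 on resident macrophages and patrolling monocytes, was at 2.77, 4.16 and 2.35 FPKM in young wild type, 2.36, 1.77 and 2.22 in old wild type and 2.70, 0.509 and 1.04 in P311-/-. For Cx3cr1, P311-/- replicates 2 and 3 were below all 6 wild-type libraries, and replicate 1 was among the wild-type values. It did not pass in any comparison, with a log2 fold change of -0.82 in P311-/- against old wild type (limma, adjusted p = 0.395). Once P311-/- replicate 1 was left out it passed, falling by 1.41 (limma, adjusted p = 0.0240). Ccr1 gave 0.76 for old over young wild type (limma, adjusted p = 0.189), and Ccr3, an eosinophil receptor, reached at most 0.424 FPKM and was not tested.

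Counted together, 0 of the 9 genes passed at an adjusted p under 0.05 in limma in any of the 3 comparisons; before adjustment 0 had p under 0.05 for old against young wild type, 1 for P311-/- against old wild type and 2 for P311-/- against young wild type, where 26.3%, 16.1% and 21.4% of all genes tested had one. The voom fit of limma on recovered reads called 0 as well in each. Of all 14233 genes tested, 5.40% passed for old against young wild type, 0.0703% for P311-/- against old wild type and 0.400% for P311-/- against young wild type, so a list of 9 would hold few calls at these shares. For old over young wild type 5 of 9 values were above 0, with a median of 0.43, where all genes tested had a median of 0.0050. For P311-/- 8 of 9 were below 0 against old wild type, with a median of -0.61 beside -0.0039 over all genes, and 9 of 9 against young wild type, with a median of -0.41 beside 0.014. Any 2 of the comparisons share the libraries of a group. Groups did not overlap for 2 members between old and young wild type, Ccl8 and Cx3cl1, where 37.1% of all genes tested did not overlap. They did not overlap for 0 members between P311-/- and old wild type (18.0% of all genes) and for 2, Ccl9 and Cx3cl1, between P311-/- and young wild type (23.5% of all genes).

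**Figure D2:**
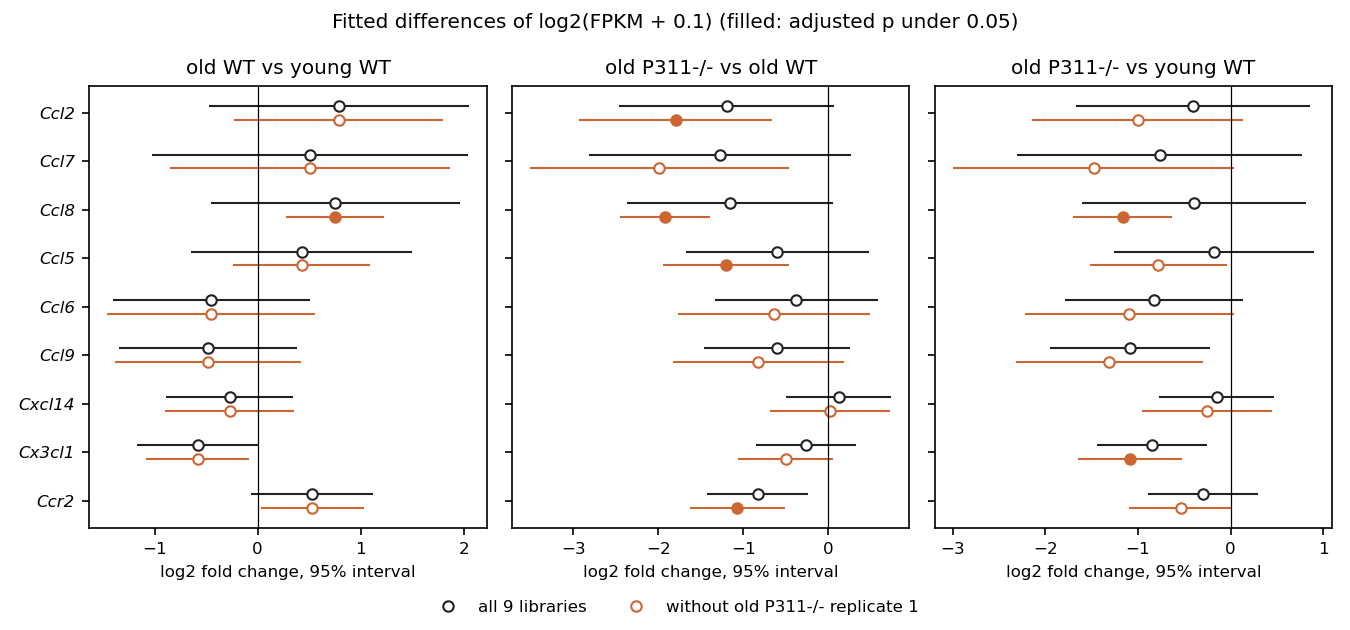
Log2 fold change of log2(FPKM + 0.1) for each gene (horizontal axis, with 95% intervals) in the 3 comparisons, fitted with all 9 libraries (black) and without old P311-/- replicate 1 (orange); filled points have an adjusted p under 0.05. All black points are open, and against old wild type 4 orange points are filled, Ccl2, Ccl8, Ccl5 and Ccr2.

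The P311-/- libraries split in the same way for every member. Replicate 1 was above replicates 2 and 3 in 9 of 9 genes, against 38.2% of all genes tested. It was within the range of old wild type in 8 of 9, for which no share over all genes was worked out. Replicates 2 and 3 were both below all old wild-type libraries in 6 of 9, namely Ccl2, Ccl7, Ccl8, Ccl5, Cx3cl1 and Ccr2, against 23.1% of all genes. Replicate 1 exceeded the mean of the other two 4.87-fold for Ccl8, 4.44-fold for Ccl7, 3.58-fold for Ccl2 and 3.53-fold for Ccl5. The ratio was smaller for Ccl6 at 1.73, Ccr2 at 1.66, Cx3cl1 at 1.64, Ccl9 at 1.57 and Cxcl14 at 1.23. The highest library was old wild-type replicate 1 for 4 genes, Ccl7, Ccl8, Ccl5 and Ccr2, and the lowest was P311-/- replicate 2 for 5 genes and replicate 3 for 3. These counts too have no share over all genes beside them.

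Without P311-/- replicate 1, 4 members passed against old wild type, all lower, and the median over the members was -1.07. Of all genes 13.2% passed there in either direction, 883 of 14233 as lower. Against young wild type 2 members passed, Ccl8 and Cx3cl1, both lower, with a median of -1.08 over the members. Of all genes 19.6% passed there in either direction, 1312 of 14233 as lower. Between old and young wild type 1 member passed, Ccl8, where 12.3% of all genes passed in either direction. All 9 libraries were also kept and given quality weights, estimated from how far each deviated from its group in these same values. Replicate 1 had a weight of 0.270 and replicates 2 and 3 had 0.687 and 2.54. The weighted fit is thus not independent of leaving replicate 1 out. That fit called 3 members lower against old wild type, Ccl2, Ccl8 and Ccr2, where 19.1% of all genes passed in either direction. It called 2 lower against young wild type, Ccl9 and Cx3cl1, where 22.3% passed in either direction, and 0 between old and young wild type, where 16.1% passed. In the alternatives run, no member was called unless replicate 1 was left out or these weights were used. The weights lowered replicate 1 and also gave P311-/- replicate 3 the highest weight of all libraries.

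**Figure D3:**
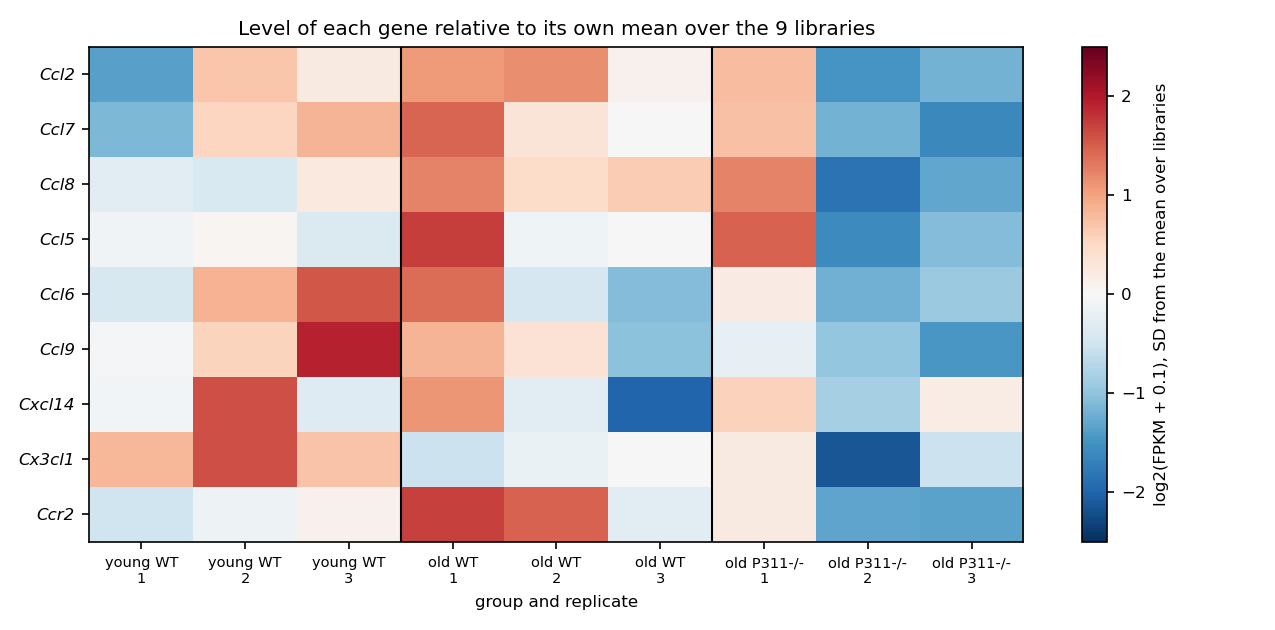
Heat map of log2(FPKM + 0.1) of each gene (rows) in each library (columns), in SD from the gene's mean over the 9 libraries; red is above and blue below the mean. P311-/- replicates 2 and 3 are blue in nearly all rows, Cxcl14 in replicate 3 being the exception, and P311-/- replicate 1 is close to old wild-type replicate 1 for Ccl8 and Ccl5.

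Levels over the libraries were most alike between Ccl2 and Ccl7, with a root mean square difference of 0.422 between their standardised log2 levels over 9 libraries, followed by Ccl8 and Ccl5 at 0.437 and Ccl6 and Ccl9 at 0.441. Among all genes tested, those nearest to Ccl8 were Tlr7 at 0.242, Sat1 at 0.252 and Evi2a at 0.263. Among the nearest to Ccl2 were Gbp8 at 0.321 and Scimp at 0.396, and among the nearest to Ccr2 were Ptpn12 at 0.357 and Nus1 at 0.363. Tlr7 shows what such a distance means, at 3.85, 4.26 and 4.82 FPKM in young wild type, 6.26, 4.70 and 5.45 in old wild type and 5.82, 2.49 and 2.42 in P311-/-. These are descriptions over 9 shared libraries.

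In the wider family, 38 chemokine ligand genes were listed, of which 27 were tested, the 8 ligands above among them. None passed in limma in any comparison; before adjustment 7 had p under 0.05 for old against young wild type, 4 for P311-/- against old wild type and 5 for P311-/- against young wild type, of 27, beside the shares of 26.3%, 16.1% and 21.4% over all genes, and their medians were 0.21, -0.32 and -0.40. The smallest p for old against young wild type were those of Ccl24, an eosinophil chemoattractant, with a log2 fold change of 1.41 (limma, adjusted p = 0.0611), and Ccl11, with 0.74 (limma, adjusted p = 0.103). For P311-/- against old wild type they were those of Xcl1, a T and NK cell product, with -1.85 (limma, adjusted p = 0.253), and Cxcl9, an interferon-inducible ligand, with -1.85 (limma, adjusted p = 0.266). Cxcl9 was at 11.8, 8.90 and 5.87 FPKM in old wild type and at 8.65, 1.11 and 1.19 in P311-/-, the split seen in Ccl8. Against young wild type they were Ccl28, with 1.995 (limma, adjusted p = 0.0779), and Ccl24, with 1.65 (limma, adjusted p = 0.0839). Without P311-/- replicate 1 both passed, higher, where 19.6% of all genes passed in either direction, 1473 of 14233 as higher and 1312 as lower. In that fit 6 of the 27 ligands passed as lower, Ccl4, Ccl8, Cx3cl1, Cxcl16, Cxcl9 and Xcl1.

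Without P311-/- replicate 1, 7 of 27 tested ligands fell against old wild type, where 13.2% of all genes passed in either direction, 883 of 14233 as lower. They were Ccl2, Ccl4, Ccl5, Ccl8, Cxcl16, Cxcl9 and Xcl1. Of 18 receptor genes listed 10 were tested, and 0 passed in limma in any comparison, with 1, 3 and 3 at an unadjusted p under 0.05 in the order above, beside the same shares of all genes. Without replicate 1, 5 of the 10 tested receptors fell against old wild type, beside the same 13.2% in either direction and 883 of 14233 genes as lower. They included Ccr2, Cx3cr1, Cxcr4 and Xcr1, the last a receptor of cross-presenting dendritic cells. None of the 16 genes of chemokine receptor signalling passed with all libraries. Of these, 15 were below 0 in old against young wild type, beside 49.6% of all genes, with a median of -0.42. In limma 9, 0 and 8 had an unadjusted p under 0.05 in the order above, beside 26.3%, 16.1% and 21.4% of all genes. Of 6 tested proteases that cut chemokines 0 passed with all libraries; Adam17, which sheds CX3CL1 from the membrane, was at 7.63, 7.82 and 9.39 FPKM in young and 5.71, 5.06 and 6.14 in old wild type, without overlap (log2 fold change -0.55; limma, adjusted p = 0.0939, and 0.0405 without P311-/- replicate 1). Mmp14, with the smallest p of these proteases, gave -0.65 (limma, adjusted p = 0.0635, and 0.0217 without that library). The NF-kB pathway, a common inducer of chemokine genes, had 0 of 14 called in each comparison, with 3, 2 and 7 at an unadjusted p under 0.05, beside 26.3%, 16.1% and 21.4% of all genes.

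**Figure D4:**
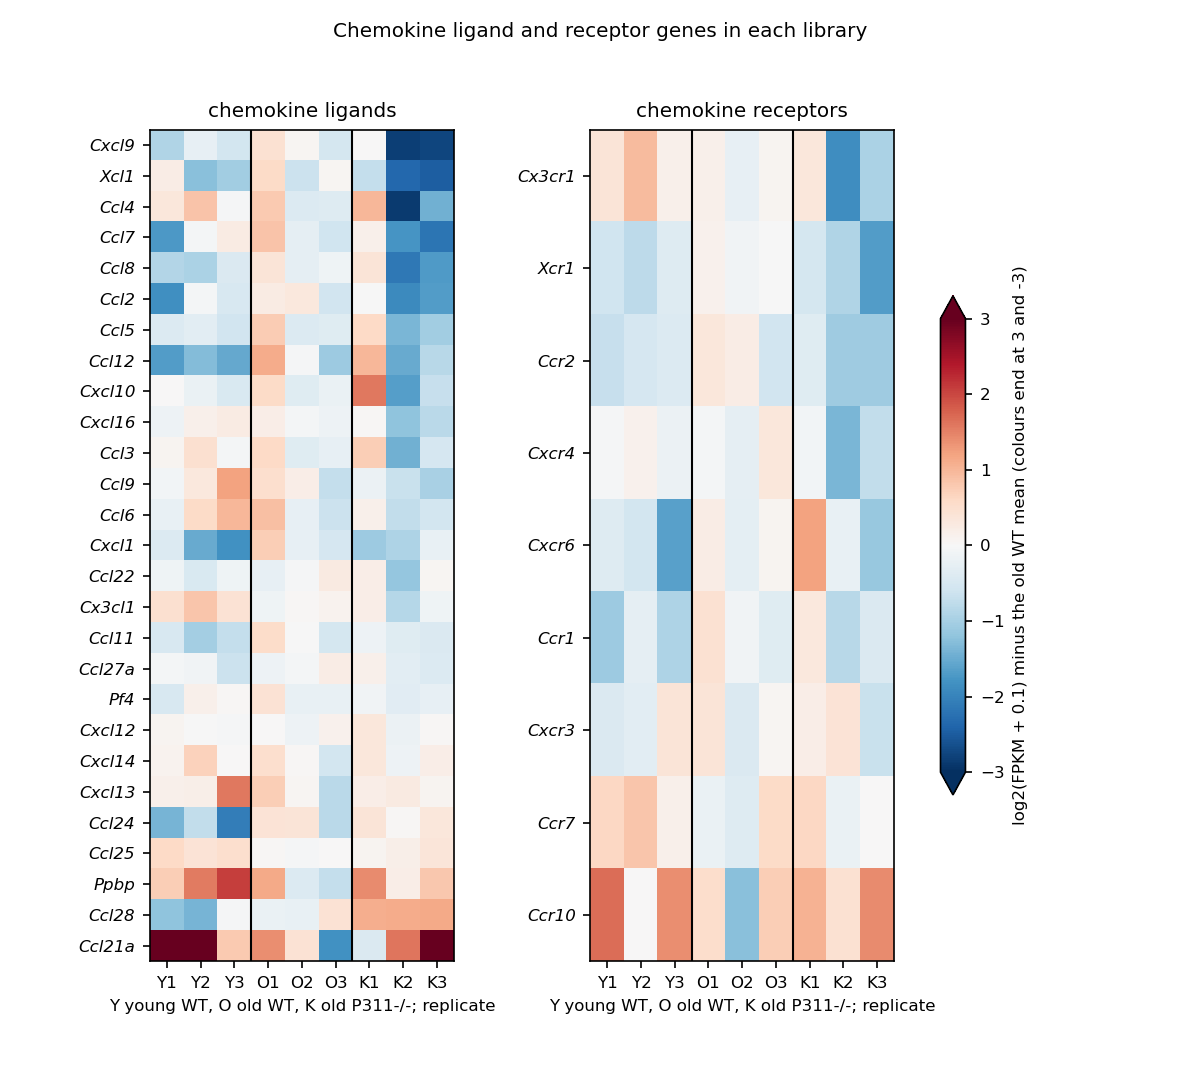
Log2(FPKM + 0.1) of the 27 tested ligand genes (left) and of tested receptor genes (right) in each library, minus the gene's old wild-type mean; genes are ordered by their mean in P311-/- replicates 2 and 3, and colours end at 3 and -3. Blue in the last 2 columns is deepest for Cxcl9, Xcl1, Ccl4, Ccl7, Ccl8 and Ccl2, whose P311-/- replicate 1 is near or above the old wild-type mean except for Xcl1.

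Markers of cell types moved with the same libraries: of 11 marker lists, the summed level in P311-/- replicate 1 was above that in replicates 2 and 3 in 9, the satellite cell and muscle fibre lists being the others. The 16 macrophage markers, all above 0 in all libraries, had summed levels of 1698, 743 and 1011 FPKM in P311-/- replicates 1, 2 and 3, beside 1264 to 1863 in the old and 1564 to 2410 in the young wild-type libraries. The 10 monocyte markers, of which Ccr2 is one, had sums of 152, 90.0 and 121 FPKM in P311-/-, beside 99.4 to 175 in the old and 146 to 185 in the young wild-type libraries. The 12 T and NK cell markers had sums of 25.2, 6.71 and 11.3 FPKM in P311-/-, beside 15.6 to 25.2 in the old and 13.8 to 15.3 in the young wild-type libraries. The same order held for lists of cells that are not leukocytes. The 10 fibroblast markers, all above 0 in all libraries, had sums of 943, 611 and 669 FPKM in P311-/-, beside 787 to 1039 in the old and 1129 to 1156 in the young wild-type libraries. The 8 endothelial markers, also all above 0, had sums of 66.4, 51.2 and 53.1 FPKM in P311-/-, beside 55.3 to 78.0 in the old and 59.9 to 60.0 in the young wild-type libraries.

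B cell markers, of which 3 of 6 were tested and 3, Cd79a, Ms4a1 and Pax5, were at 0 in at least 1 library, had sums of 63.5, 20.7 and 23.2 FPKM in P311-/-, beside 22.7 to 81.8 in the old and 27.0 to 36.1 in the young wild-type libraries. Neutrophil markers summed to at most 31.0 FPKM in any library, and Ly6g was at 0 in all. The 7 tested of 8 dendritic cell markers summed, with the untested one, to 6.35 to 10.9 FPKM over the 9 libraries. With all libraries, 0 of the macrophage, monocyte, and T and NK cell markers passed in limma in any comparison. The numbers of them at an unadjusted p under 0.05 were 2, 2 and 3 for old against young wild type, 2, 1 and 3 for P311-/- against old wild type and 9, 7 and 2 for P311-/- against young wild type, beside 26.3%, 16.1% and 21.4% of all genes in these comparisons. For P311-/- against old wild type, the list medians with all libraries and without replicate 1 were -0.21 and -0.42 for macrophage markers, -0.21 and -0.70 for monocyte markers, -0.51 and -1.12 for T and NK cell markers and -0.18 and -0.40 for fibroblast markers. They were 0.26 and -1.01 for the 3 tested B cell markers, of which 2 were above 0 with all libraries. They were -0.064 and -0.20 for mast cell markers, and -0.61 and -1.07 for the 9 chemokine genes. The part of these markers in the chemokine differences was not tested, and in bulk muscle fewer cells of a type and less RNA per cell cannot be told apart.

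Muscle fibre markers had the opposite order. They summed to 31559 FPKM in P311-/- replicate 1 and to 44928 and 42428 in replicates 2 and 3, against 30005 to 37536 in old wild type. Among lists with calls for old against young wild type, the mast cell markers Cpa3 and Fcer1a rose, by 1.64 and 2.31 on the log2 scale (limma, adjusted p = 0.0356 and 0.0308). The fibroblast markers Cd248, Col1a1 and Fbn1 and the muscle fibre marker Myh1 fell. These are 2 of 6, 3 of 10 and 1 of 8 genes. Of all genes 5.40% passed in either direction, 482 of 14233 as higher and 286 as lower. The calls end without young replicate 3 or old wild-type replicate 2, when 0 genes pass, and with the replicate number as a block, when 0 genes pass too. The part of mast cells or fibroblasts in the chemokine levels was not tested.

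**Figure D5:**
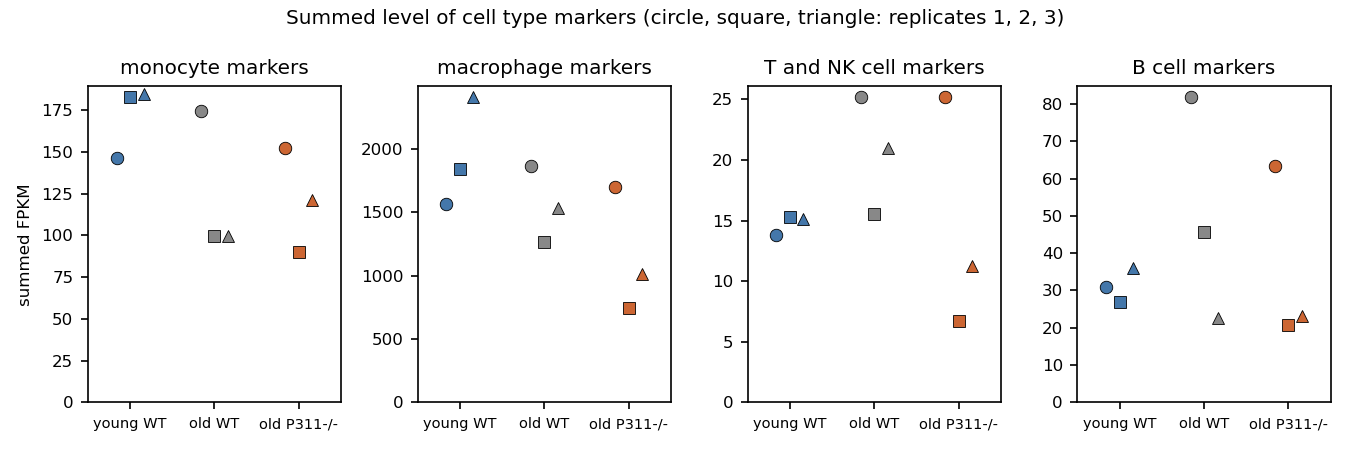
Summed FPKM of the monocyte, macrophage, T and NK cell and B cell marker lists (vertical axes start at 0, a separate scale for each list) in each library of the 3 groups; circles, squares and triangles are replicates 1, 2 and 3. In P311-/- the circle is the highest of the 3 in every panel, for macrophage markers at 1698 against 743 and 1011 FPKM.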

How the data were processed

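Poly(A) RNA of 9 libraries was analysed, 3 in each of 3 groups taken from the labels. Per the submitters' processing notes the authors used HISAT2 2.2.1, featureCounts 2.1.1, DESeq2 1.42.0 and the build mm39; options and strand use are not given in the sources here. Positions in the deposited table equal those of GRCm38 for 98.3% of 54409 gene identifiers shared with GENCODE M21. The deposited values are FPKM, with a library size that the authors scaled by median-of-ratios factors. FPKM times gene length and a library constant came out whole for 100% of values (tolerance 0.001); these recovered reads served for depth, the filter and voom.

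Genes with at least 0.5 FPKM and at least 10 recovered reads, each in at least 3 libraries, were tested with limma 3.58.1 in R 4.3.3 on log2 of FPKM plus 0.1 (trend and robust moderation, 9 libraries in 1 fit, no block), adjusted by Benjamini-Hochberg over 14233 genes and called at 0.05. Fold changes are on that log2 scale, which understates changes of low genes. The fit was tried on simulated data with the same spread in every library. That trial does not cover a deviating library such as P311-/- replicate 1. The test planned in case the table held raw counts was not run, since the unit is FPKM.

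The members and gene lists were chosen with earlier results of these data known. Named genes were all members, the receptors of the ligands, list genes that passed or else the 2 of smallest p, and the 3 tested genes nearest to Ccl2, Ccl8 and Ccr2 over the libraries (some genes that the rule names are not reported here); lists were described by counts and medians. A gene given under another part of the rule, or chosen after its values were seen, is named as such. Alternatives were another pseudocount, no filter, total-count scaling, fits of 6 libraries, a replicate block, voom, quality weights, a gene length correction and leaving out each library.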

Additional observations from a re-analysis of the deposited data

How the results depend on the processing

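Over 17 alternatives, 438 of 459 recomputed fold changes of the 9 genes kept their direction and side of the threshold, 12 passed it (7 without P311-/- replicate 1, 5 with library quality weights) and 9 changed direction. Without that library 1, 4 and 2 members were called for old against young wild type, P311-/- against old wild type and P311-/- against young wild type; over the alternatives that leave out 1 library the counts ran from 0 to 1, 0 to 4 and 0 to 2. Quality weights called 3 and 2 in the last 2 comparisons. In the same order, genes called numbered 768, 10 and 57; leaving out 1 library gave 0 to 1755, 4 to 1875 and 4 to 2785, with all 3 highest counts without P311-/- replicate 1, and 0, 4 and 4 without young replicate 3, old wild-type replicate 2 and young replicate 3. Without a filter there were 5, 9 and 23, with total-count scaling 346, 9 and 34, with 6 libraries 1653, 6 and 12, with quality weights 2290, 2720 and 3173, with the length trend removed 397, 10 and 35, with pseudocount 1 833, 12 and 87 and with voom 1005, 7 and 139. Replicate numbers were not shown to pair the libraries, since same-numbered deviations correlated between -0.10 and 0.15 and differently numbered ones between -0.16 and 0.21; the replicate block called 0, 4 and 5 genes and 0 members in each comparison. Total-count scaling moved the median of all genes to -0.12 for old against young and -0.13 for P311-/- against young wild type. Direction changed for Ccl7 in old against young wild type (-0.10 without young replicate 1, range to 0.89), Cxcl14 in old against young (0.0041 without old wild-type replicate 3, range from -0.53), in P311-/- against old wild type (-0.15 without old wild-type replicate 3, range to 0.38) and in P311-/- against young (0.057 without young replicate 2, range from -0.28). It changed for Ccl6 in P311-/- against old wild type (0.068 without old wild-type replicate 1, range from -0.71), Cx3cl1 in that comparison (0.032 without P311-/- replicate 2, range from -0.50), Ccl8 in P311-/- against young (0.10 without P311-/- replicate 2, range from -1.16) and Ccl5 there (0.21 and 0.044 without P311-/- replicates 2 and 3, range from -0.78). The causes were not tested. Ccl2 and Cx3cl1 had few reads, 28 to 195 and 52 to 186 reads per library.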
